A study of Rattus norvegicus with 6 samples.

Results

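Lungs of rats that had inhaled C60 fullerene were compared with lungs of rats kept in clean air, 3 days after the end of the exposure. These are 2 of the 6 labelled samples of the study, chosen by their titles. They gave 5 of the 23 arrays that came with the study: C60 arrays 1 and 2 and control arrays 1, 2 and 3. The C60 group consisted of male Wistar rats, 9 weeks old at the start, that breathed an aerosol made from a C60 fullerene suspension in a whole-body chamber for 6 hours a day on 5 days a week over 4 weeks. The control group was of the same sex, strain and age and breathed clean air on the same schedule. Each group had 5 rats, and the right lungs of 4 were set aside for arrays after the lungs had been rinsed with saline. For the C60 group the label states n = 2, but 4 arrays are present. The first 2 of them gave the ratios in the authors' deposited table (median absolute log2 difference 0.00082 over 20357 brighter probes), while all 4 arrays gave 0.109 and arrays 3 and 4 gave 0.219. Arrays 3 and 4 were therefore left out of the main comparison and serve as a check, including fits that add them or put them in place of arrays 1 and 2.

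C60 fullerene is a hollow cage of carbon atoms that dissolves poorly in water, and its aerosols reach the alveoli as fine particles. In the alveoli, inhaled particles are taken up by macrophages, which carry them into lysosomes. Where particles injure the lung, macrophages and epithelial cells release chemokines that call in neutrophils, and matrix proteases, antioxidant enzymes and MHC class II genes often follow. The same tissue also answers to stress hormones, of which corticosterone is the main glucocorticoid of the rat.

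A level below is log2 of the processed spot signal minus the array's 75th percentile, so 0 is a bright probe. The edge of detection was the lowest level that passed as well above background on an array. It lay at -4.19 and -4.46 on C60 arrays 1 and 2, and at -5.11, -5.15 and -4.86 on the control arrays. On C60 arrays 3 and 4 it lay at -6.535 and -6.22. A gene is called where limma's moderated test, fitted over 21 arrays of all 6 groups, gave a Benjamini-Hochberg adjusted p under 0.05. Where no array of a group showed a probe well above background, only a limit is known for that group, and the difference is given as "at least N-fold". That bound uses the lowest well-above-background signal of each array. Nothing in the labels says whether 1 array is 1 rat, so the p-values measure the spread between arrays. Because these are bulk lungs, fewer cells of a type and less RNA per cell cannot be told apart.

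The arrays were of lung: the 7 lung markers Sftpa1, Sftpb, Sftpc, Sftpd, Scgb1a1, Ager and Aqp5 had levels of 4.04 to 8.62 on the C60 arrays and 4.12 to 8.92 on the control arrays, and the lowest rank of any of them on an array was at the 95.3 percentile of its genes. Negative control spots were brighter on the 2 C60 arrays than on the controls. Their mean net signal was 144 and 66.5 on the C60 arrays, against 36.4, 36.5 and 39.4 on the control arrays. The 2 C60 arrays correlated at 0.985, and the control arrays at 0.989 to 0.991. The share of spots that passed as well above background was 57.4 and 60.7 percent on the C60 arrays. On the control arrays it was 65.3, 66.0 and 63.5 percent. C60 arrays 3 and 4 had 78.1 and 76.5 percent. Each slide held 1 group only. Effects of slide and of group cannot be told apart. The slides of the other 5 groups formed a consecutive run of serials, and the 3-day control slide lay outside it.

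Of 25234 genes and unnamed probes tested, 1243 were called (4.93 percent), 744 higher (2.95 percent) and 499 lower (1.98 percent) in C60 lungs. By at least 1 log2 unit, 661 were called. The shares of 2.95 percent higher and 1.98 percent lower are the ones to set beside the list counts below. Only 496 of the called features carry a gene symbol, of 11937 tested with one. The median difference over all features was -0.03. Without any 1 of the 5 arrays, between 744 and 917 features were called, and 369 of the 1243 were called in all 5 such fits.

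For most of the called features the control slide stood apart from all other groups. The 3-day control mean lay outside the range of all 5 other group means for 995 of the 1243 (80.0 percent), against 35.8 percent of all features tested. The C60 mean lay outside the range of the other 5 for 467 (37.6 percent), against 30.8 percent of all features. By at least 1 log2 unit, the counts were 39 for C60 (3.14 percent) and 250 for control (20.1 percent). Over all features they were 104 (0.41 percent) and 347 (1.38 percent). Calling selects features in which the 2 slides differ, which makes it likelier that 1 of them lies outside. Rises followed the control slide more than falls: the control mean lay outside for 675 of 744 rises and 320 of 499 falls, and the C60 mean for 174 rises and 293 falls. Against the 4 groups that are neither, 5589 features were called for the 3-day C60 slide (22.1 percent) and 9399 for the 3-day control slide (37.2 percent). These 2 contrasts share the same 4 groups. The C60 contrast rests on 2 arrays and the control contrast on 3, so the counts are not like for like. The 1-month slides were scanned on another day than the 3-day slides. Below, "the other 4 groups" or "the other groups" are nickel oxide at 3 days and C60, clean air and nickel oxide at 1 month (33 days).

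Only 39 called features (3.14 percent) had a C60 mean at least 1 log2 unit outside all other groups, against 0.41 percent of all features. Of the named rises these were Acot1, Xdh and Il10ra. Acot1, a cytosolic enzyme that splits fatty acyl-CoA, had levels of 1.43 and 1.60 on the C60 arrays and -1.29, -0.62 and -0.59 on the control arrays. It rose 5.10-fold (log2 difference 2.35, SE 0.44, n = 2 C60 and 3 control arrays; limma adjusted p = 0.00358). C60 arrays 3 and 4 had a mean of 1.49, and the 16 arrays of the other 4 groups ran from -2.14 to -0.29 with a median of -1.40, so all 4 C60 arrays lay above all 19 others. The call held without any 1 array. Acot1 has near-identical relatives in the rodent genome, and the probe may read more than 1 of them. Its relative Acot2, a mitochondrial thioesterase, had levels of 1.54 and 1.69 on the C60 arrays and between 0.88 and 1.14 on control arrays 1 and 3, with array 2 higher than both, without a call (difference 0.48; adjusted p = 0.167). Acot2 was chosen after its value was seen.

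Xdh, which encodes the xanthine oxidoreductase that makes uric acid, had levels of 2.86 and 2.45 on the C60 arrays and 0.93, 1.09 and 1.18 on the control arrays. It rose 3.01-fold (log2 difference 1.59, SE 0.28; limma adjusted p = 0.00185), and the call held without any 1 array. C60 arrays 3 and 4 gave 1.80 and 1.85, above all control arrays but below C60 arrays 1 and 2. On the other 16 arrays it ran from 0.83 to 2.02. Cpt1a, the gate enzyme for fatty acid entry into mitochondria, had levels of 1.32 and 1.57 on the C60 arrays and 0.54, 0.71 and 0.78 on the control arrays. It rose by 0.77 on the log2 scale (SE 0.16; limma adjusted p = 0.00684, but 0.108 without C60 array 2). Its C60 mean lay 0.55 above the highest other group, C60 arrays 3 and 4 gave 1.36 and 1.45, and none of the 16 other arrays reached the lower C60 array, the highest being 1.00.

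Il10ra, a chain of the interleukin-10 receptor, met the same rule on 1 array only. Its levels were -2.53 and -0.68 on the C60 arrays and -3.24, -3.30 and -3.34 on the control arrays (log2 difference 1.69, SE 0.42; limma adjusted p = 0.0253). Without C60 array 2 the adjusted p was 0.435, and without control array 1, 2 or 3 it was 0.0633, 0.0639 and 0.0667.

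Falls in which the C60 slide stood apart sat at the edge of detection. Of 28 called falls with a C60 mean at least 1 log2 unit below all other groups, 27 were not well above background on either C60 array, and for 14 the bound allows no fold. Of 11 such rises, all were well above background on at least 1 C60 array. Rnf151, a ring finger protein known from testis, had levels of -6.24 and -6.56 on the C60 arrays, against -3.10, -3.52 and -3.36 on the control arrays, and was at least 1.99-fold lower (limma adjusted p = 0.00138). Arrays 3 and 4 gave -5.92 and -6.18, also below the 4 other groups. Itga6, the alpha 6 integrin of epithelial basement membrane contacts, had -5.74 and -5.52 on the C60 arrays and -3.63, -3.95 and -3.87 on the control arrays, at least 1.42-fold lower. Its other probe differed by -0.05. C60 arrays 3 and 4 gave -4.62 and -3.95 for Itga6, and the means of the other 4 groups ran from -4.32 to -3.47. Gtf2ird2, Matcap1 and Tigd3 were at least 1.11-fold, 1.26-fold and 1.64-fold lower, and Papln has no fold. On C60 arrays 3 and 4 all 4 of these genes had levels between -4.80 and -4.07, within or next to those of the other groups. The call of Matcap1 was lost without C60 array 1 (adjusted p = 0.127) and that of Tigd3 without C60 array 1 or 2 (0.0659 and 0.108).

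**Figure D1:**
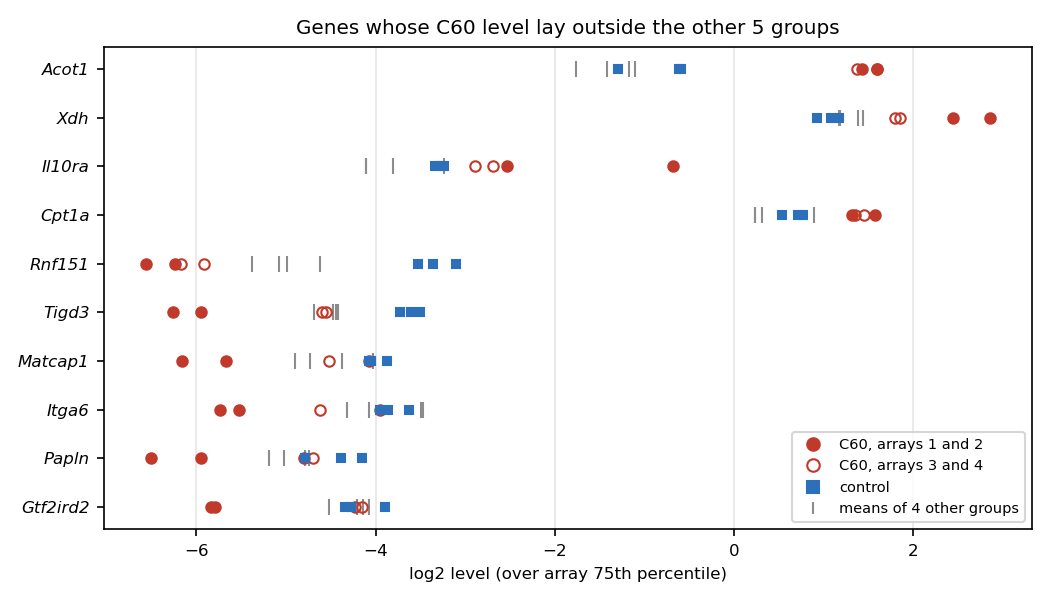
Levels (log2 signal over the array's 75th percentile, horizontal axis) of 10 genes whose mean over C60 arrays 1 and 2 lay outside the means of the other 5 groups. Filled circles are C60 arrays 1 and 2, open circles C60 arrays 3 and 4, squares the 3 control arrays and ticks the means of the 4 other groups. For Acot1 and Cpt1a all 4 C60 arrays stand right of every other group, while for Tigd3, Papln and Gtf2ird2 the open circles fall back among the other groups.

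The largest rises and falls were of another kind: the C60 arrays lay with the other groups and the control slide lay away from them. Of the 12 largest named rises, the control mean was at least 1 log2 unit outside the other 5 groups in 10 and the C60 mean in 1. Of the 12 largest named falls the counts were 11 and 2. Among all called rises the shares were 25.4 and 1.48 percent, and among all called falls 12.2 and 5.61 percent. Genes picked for a large difference have 1 of the 2 slides outside more readily. Dsg2, a cadherin of desmosomes, the rivets between epithelial cells, had levels of -3.91 and -3.995 on the C60 arrays and 0.40, 0.10 and 0.09 on the control arrays. It fell by 4.15 on the log2 scale (17.8-fold lower, SE 0.20; limma adjusted p = 6.36e-10). The other 4 groups had means between -4.80 and -3.38, and so did the unused C60 arrays (-3.85 and -3.60).

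Ntm, Ctxn1, Spry4 and Frem2 showed the same layout. Ntm, a neural adhesion protein, was at least 8.80-fold lower, with levels of -4.68 and -5.10 on the C60 arrays and -1.22, -1.22 and -1.13 on the control arrays. Ctxn1, a membrane protein of cortical neurons, had levels of -4.17 and -3.93 on the C60 arrays, of which 1 was well above background, and -1.12, -0.95 and -1.14 on the control arrays. Spry4, which dampens growth factor signalling, was at least 5.76-fold lower. Frem2, a matrix protein of developing basement membranes, had -2.35 and -2.10 on the C60 arrays and 0.21, 0.20 and 0.15 on the control arrays (log2 difference -2.41, SE 0.19; limma adjusted p = 3.94e-07). For each of these the other 4 groups lay with C60, between -5.33 and -2.51.

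Receptors for thrombin differed in opposite directions. F2r, the first thrombin receptor of platelets and endothelium in humans, was at least 3.13-fold higher in C60 lungs, with levels of -3.47 and -3.33 on the C60 arrays and -6.95, -6.28 and -5.93 on the control arrays, where it was not well above background. F2rl3, a second thrombin receptor, had levels of -4.91 and -4.22 on the C60 arrays, 1 of them well above background, and -1.39, -1.70 and -1.81 on the control arrays (log2 difference -2.93, SE 0.36; limma adjusted p = 5.68e-05). The other 4 groups had means from -5.64 to -2.94 for F2r and from -4.56 to -3.44 for F2rl3. For both genes the control mean lay outside all other groups and the C60 mean did not. The F2r probe has 21.7 percent G and C. In the coagulation and fibrinolysis list F2r and F2rl3 were the 1 rise and the 1 fall among 25 tested.

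Among the 12 largest rises, Cldn9, a tight junction claudin, had the highest C60 level. Its levels were 3.29 and 3.43 on the C60 arrays and 1.04, 1.58 and 1.16 on the control arrays (log2 difference 2.10, SE 0.22; limma adjusted p = 1.04e-05), with 2.94 to 3.71 in the other 4 groups. Another claudin, Cldn8, fell by 1.17 on the log2 scale (-2.54 and -2.02 on the C60 arrays, -1.06, -1.16 and -1.13 on the control arrays), a call lost without C60 array 1 (adjusted p = 0.244) or control array 1 (0.0581). They were the 1 rise and 1 fall among 30 junction genes. Celsr1, a planar cell polarity cadherin that aligns epithelial cells, had levels of 0.11 and -0.03 on the C60 arrays and -3.14, -2.64 and -2.80 on the control arrays (log2 difference 2.90, SE 0.20; limma adjusted p = 9.75e-08). Its other probe differed by -0.27, with -3.39 and -3.10 on the C60 arrays and -2.81, -3.02 and -3.09 on the control arrays.

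The 60-base probes behind several of these values are printed as deposited, 5′ to 3′, with G and C in capitals, because the share of G and C in a probe moved with the difference over all probes. Each reads without a stop codon in at least 1 frame. Positions are those of the file, on rat build rn4.
Celsr1, chr7:124033123-124033182, minus strand, 55 percent G and C, difference 2.90: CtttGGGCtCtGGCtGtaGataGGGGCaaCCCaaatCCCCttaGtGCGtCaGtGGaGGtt
Celsr1, chr7:123902722-123902781, minus strand, 51.7 percent, difference -0.27: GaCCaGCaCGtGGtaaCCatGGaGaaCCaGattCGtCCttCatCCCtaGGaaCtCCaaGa
Or9s14, chr9:91821967-91822026, plus strand, 41.7 percent: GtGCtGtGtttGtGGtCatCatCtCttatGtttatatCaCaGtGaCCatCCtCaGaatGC
Or5w22, chr3:71204304-71204363, plus strand, 35 percent: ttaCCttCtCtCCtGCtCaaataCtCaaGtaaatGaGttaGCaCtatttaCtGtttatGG
Frem2, chr2:142469241-142469485, minus strand, 45 percent: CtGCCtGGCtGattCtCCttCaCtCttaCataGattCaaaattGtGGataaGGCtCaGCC
Psmd6, chr15:12660117-12660290, plus strand, 35 percent: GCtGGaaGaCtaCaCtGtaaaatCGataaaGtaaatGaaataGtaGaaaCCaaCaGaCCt
Ddit4, chr20:27253523-27253582, minus strand, 60 percent: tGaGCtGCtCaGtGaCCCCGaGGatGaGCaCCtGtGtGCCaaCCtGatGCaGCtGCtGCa
The 2 Celsr1 probes lie in 1 gene and on 1 strand, yet only the first differed between the groups. The spans of the Frem2 and Psmd6 probes, at 245 and 174 bases, are longer than the probes themselves.

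Olfactory receptors, the odour sensors of the nasal epithelium, were 5 of the 12 largest named rises. Or9s14 was at least 3.14-fold higher, with levels of -3.53 and -3.25 on the C60 arrays and -7.33, -7.40 and -7.14 on the control arrays. Or5w22 had -0.84 and -0.25 on the C60 arrays and -2.81, -2.73 and -2.96 on the control arrays (log2 difference 2.29, SE 0.21; limma adjusted p = 2.68e-06). Or14a258 differed by 2.09, and Olr193 and Or12e9 were at least 3.14-fold and 4.25-fold higher, the last a call lost without any 1 of the 5 arrays (adjusted p between 0.0752 and 0.203). Across the whole family, a group looked at after these values were seen, 23 of 274 tested members were called higher and 2 lower, against 2.95 and 1.98 percent of all features. In all 23 the 3-day control mean was below every other group, as the control mean lay outside all others for 90.7 percent of all called rises, and in 10 the gene was not well above background on any control array. The family was dim, with a median control level of -4.62 against -1.23 over all features. Of 4056 features with a control level from -6 to -4, 133 were called higher and 88 lower. Of 637 at -6 or below, 89 were called higher and 0 lower.

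**Figure D2:**
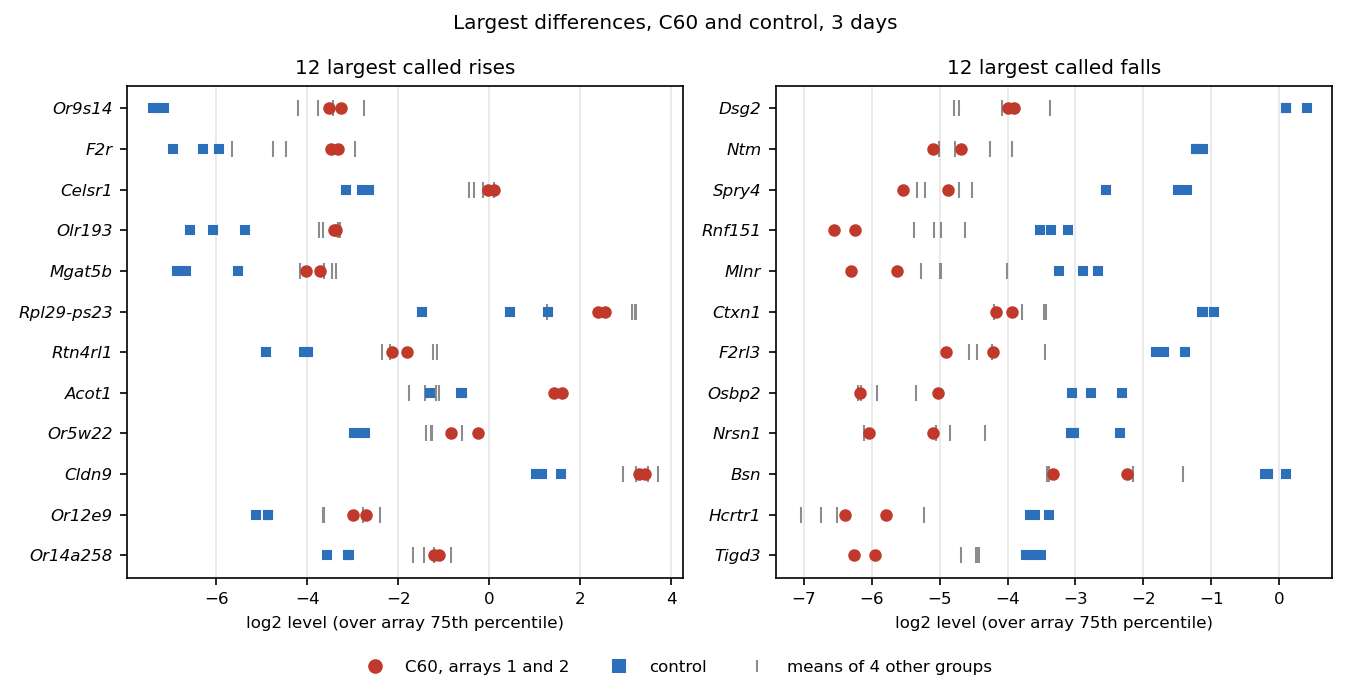
Levels (log2 signal over the array's 75th percentile, horizontal axis) of the 12 largest called rises (left panel) and the 12 largest called falls (right panel) among genes with a symbol. Circles are C60 arrays 1 and 2, squares the 3 control arrays and ticks the means of the 4 other groups. In most rows the ticks surround the circles and the squares stand alone, as for Dsg2 at 0.09 to 0.40 against -4.80 to -3.38, while for Acot1 the circles stand alone.

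The lists of macrophage activation, chemokines and cytokines held no called gene in the main comparison. In the list of macrophage activation and lysosome genes, 0 of 31 tested members were called by limma (2 higher and 0 lower by unadjusted p under 0.05), with a median difference of -0.03. Quantile normalization, averaging over probes and the fit without the nickel oxide groups each called 1 of them higher, and C60 arrays 3 and 4 in place of 1 and 2 called 1 lower. The lysosomal protease gene Ctss, which cuts the MHC class II chaperone, had the largest positive difference of the 31. Its levels were 3.78 and 3.73 on the C60 arrays and 3.07, 3.23 and 3.31 on the control arrays (0.55, SE 0.19; limma adjusted p = 0.107), with 4.05 to 4.44 in the other groups. Its other probe differed by 0.08. Spp1, the macrophage product osteopontin, differed by -0.70 (SE 0.59; adjusted p = 0.632) and Fabp4, a lipid carrier of alveolar macrophages, by -0.70 (SE 0.49; adjusted p = 0.534). Both turned positive with all 4 C60 arrays, to 0.09 and 0.02. Mmp12, the macrophage elastase, had levels of -2.07 and -3.01 on the C60 arrays and -2.72, -2.80 and -2.73 on the control arrays. Mmp12 is named here after its value was seen.

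Of 25 chemokine genes tested, limma called 0 (2 higher and 4 lower without adjustment), and the median difference was -0.21. With all 4 C60 arrays 1 was called higher and 2 lower, and without control array 2 there was 1 call, a rise. Ccl9, a monocyte chemokine of rodents, differed most, with -4.83 and -5.26 on the C60 arrays, where it was not well above background, and -4.43, -2.64 and -3.48 on the control arrays (adjusted p = 0.148). Ccl11, the eosinophil attractant eotaxin, had -0.33 and -0.26 on the C60 arrays and 0.63, 0.30 and 0.99 on the control arrays (adjusted p = 0.406). Of 28 cytokines and receptors limma called 0 (1 higher and 3 lower unadjusted). With all 4 C60 arrays 1 was called higher and 1 lower. With arrays 3 and 4 in place of 1 and 2, 4 were higher and 4 lower. Il1r1, the interleukin-1 receptor, differed by -1.19 (adjusted p = 0.0646) without being well above background on a C60 array, and Tnfrsf1a, the main TNF receptor, by -0.62 (SE 0.20; adjusted p = 0.0863).

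In the toll-like receptor and inflammasome list 1 of 23 rose and 1 fell. Nlrc4 is part of the inflammasome that responds to bacterial flagellin. Its levels were -0.84 and -1.17 on the C60 arrays and -1.69, -1.84 and -1.86 on the control arrays. It rose by 0.79 (SE 0.15; limma adjusted p = 0.00426), but C60 arrays 3 and 4 gave -1.53 and -1.67, with no call using all 4 arrays or without C60 array 1 (adjusted p = 0.103). Nfkbia, the inhibitor that holds NF-kappa-B in the cytosol, had 4.44 and 4.48 on the C60 arrays and 5.77, 5.32 and 5.57 on the control arrays. It fell by 1.09 on the log2 scale (SE 0.24; adjusted p = 0.0119), with 4.59 to 4.81 in the other 4 groups and -1.03 at its other probe. That call was lost without C60 array 1 or 2 or control array 1 (0.0940, 0.0711 and 0.0556). Among 11 MHC class II genes 0 were called (2 higher and 0 lower unadjusted), with a median of 0.19. With arrays 3 and 4 in place of 1 and 2 the direction turned, to 1 higher, 5 lower and a median of -0.46. Their transactivator Ciita had -1.17 and -1.36 on the C60 arrays and -2.06, -1.80 and -1.74 on the control arrays (adjusted p = 0.0873), and Ctss, also on this list, is given above. Complement had 0 calls of 23 (1 higher and 1 lower unadjusted).

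The antioxidant list, made of targets of the oxidative stress regulator Nrf2, had 1 call of 34, a rise. It was Gclm, which encodes the modifier chain of glutamate-cysteine ligase, and it was well above background on none of the 5 arrays. It therefore has no fold (-5.72 and -4.56 on the C60 arrays, -7.16, -7.25 and -7.04 on the control arrays). Its probe has 15.0 percent G and C. With all 4 C60 arrays the antioxidant list had 1 rise and 3 falls. With arrays 3 and 4 in place of 1 and 2 it had 1 rise and 8 falls. Gsta3, a glutathione transferase, had 3.90 and 1.88 on the C60 arrays and 3.85, 3.94 and 3.86 on the control arrays, so that its difference of -0.99 rests on C60 array 2 (adjusted p = 0.166, and 0.02 as the difference without that array). The haem oxygenase gene Hmox1 (difference -0.08) and Nqo1 (-0.33), the textbook Nrf2 targets, were not called; they were picked after their values were seen. Of 28 metalloendopeptidases and inhibitors 1 fell: Mmp24, a membrane-bound metalloproteinase known from nerve, by 0.78 on the log2 scale (SE 0.20; adjusted p = 0.0271). Its call was lost without any 1 array (0.0523 to 0.144). Adamts9, a protease of the proteoglycan versican, differed by -0.73 (limma adjusted p = 0.106). With all 4 C60 arrays the metalloendopeptidase list had 1 rise and 6 falls. With arrays 3 and 4 in place of 1 and 2 it had 1 rise and 5 falls.

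Among the gene lists the most calls were in the glucocorticoid-responsive genes, of which 7 of 18 tested fell and 0 rose (without adjustment, 10 lower and 1 higher), against 1.98 percent of all features called lower. The median difference was -0.83, against -0.03 over all features. Ddit4, an inhibitor of mTOR signalling, had levels of -0.18 and 0.22 on the C60 arrays and 2.00, 1.88 and 1.81 on the control arrays (log2 difference -1.87, SE 0.45; limma adjusted p = 0.0192). Fkbp5, a co-chaperone of the glucocorticoid receptor, had 1.5 and 2.79 on the C60 arrays and 3.33, 3.50 and 3.75 on the control arrays (-1.38, SE 0.39; adjusted p = 0.0484). Its 2 other probes differed by -1.56 and -1.59. Cebpd, an acute response transcription factor, had 4.86 and 5.03 on the C60 arrays and 6.45, 5.96 and 6.16 on the control arrays (-1.25, SE 0.27; adjusted p = 0.0106).

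The other 4 calls were Klf15 (-1.23), a regulator of amino acid use, Cdkn1a (-1.21), the cell cycle inhibitor p21, Errfi1 (-0.95), a brake on the EGF receptor, and Cebpb (-0.86), a partner of Cebpd. Of these, Klf15, Errfi1 and Cebpb were named after their values were seen, as were the uncalled members that follow. Per1, a clock gene, differed by -1.53 (adjusted p = 0.133), Zbtb16 by -2.69 (0.106), and Tsc22d3, the anti-inflammatory GILZ, by -0.81 (0.0678). The receptor gene Nr3c1 differed by 0.02, and Hsd11b1, whose enzyme regenerates the active hormone, by 0.12. C60 arrays 3 and 4 were below all control arrays for all 7 called genes.

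Beside these falls stands the position of the control slide: in all 7 its mean was the highest of the 6 groups. Set against the 4 other groups, the C60 mean of these 7 genes differed by -0.21 to 0.57 and the control mean by 0.82 to 2.44. The number called lower was 0 without C60 array 1, 5 without C60 array 2, 3 without control array 1 and 5 without control array 2 or 3. It was 2 when only the C60 and control arrays of 3 days were fitted, 8 with all 4 C60 arrays and 6 with arrays 3 and 4 in their place.

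**Figure D3:**
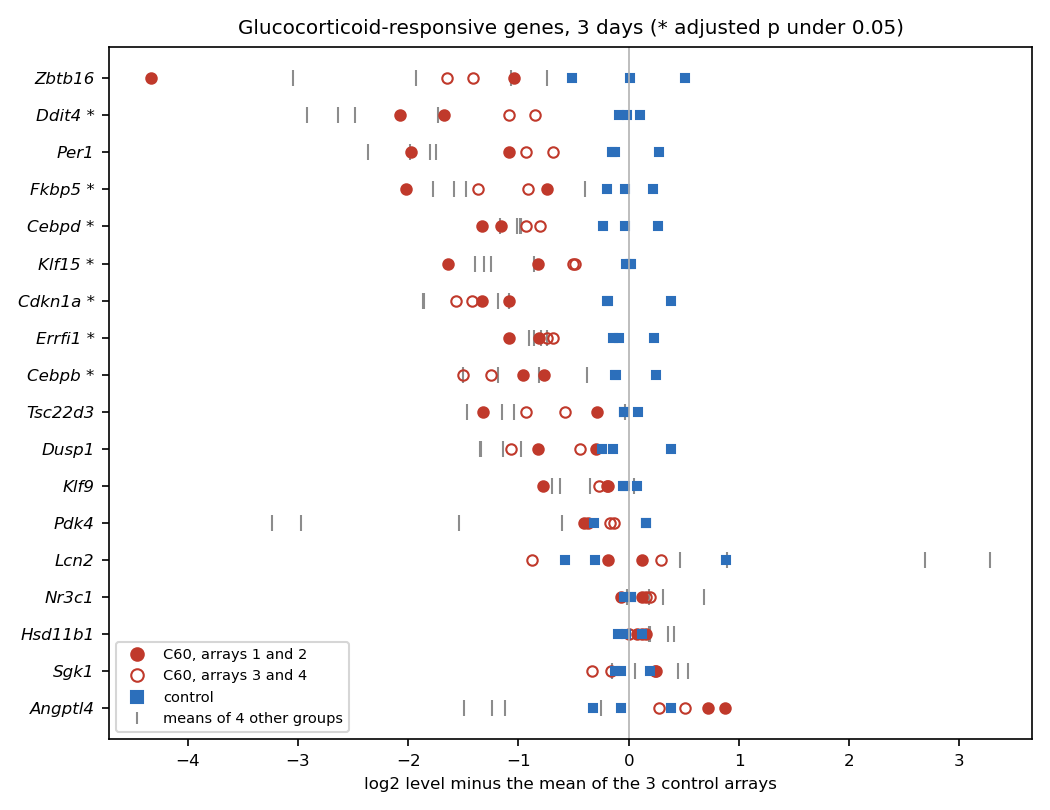
Level of each of the 18 glucocorticoid-responsive genes minus the mean of the 3 control arrays (log2, horizontal axis), by array. Filled circles are C60 arrays 1 and 2, open circles C60 arrays 3 and 4, squares the control arrays, ticks the means of the 4 other groups, and stars mark the 7 called genes. From Ddit4 to Cebpb the ticks lie left of 0 with the circles, while Nr3c1 and Hsd11b1 stay near 0 on the arrays of both groups.

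Few fuel use and matrix genes were called, beside 2.95 percent of all features called higher and 1.98 percent lower. In the list of fatty acid oxidation and PPAR alpha targets, 2 of 33 rose and 0 fell, and these were Acot1 and Cpt1a. Angptl4, a lipase inhibitor of the same regulation, also picked after its value was seen, differed by 0.80 (adjusted p = 0.259). The median of the list was 0.07, and the C60 mean was above all 5 other groups for 11 of the 33 and below all for 5, against a C60 mean outside for 30.8 percent of all features. Among collagen and matrix genes 3 of 31 fell and 0 rose. Col1a1 (-0.52), Col3a1 (-0.68) and the small proteoglycan Dcn (-1.16) are also the 3 calls in the fibroblast list, where 14 were tested. Col1a1 had 5.46 and 5.44 on the C60 arrays and 5.81, 6.07 and 6.03 on the control arrays (SE 0.12; limma adjusted p = 0.0140). Its 2 other probes differed by -0.18 and -0.19. Dcn had 3.93 and 2.69 on the C60 arrays, 4.37, 4.49 and 4.54 on the control arrays, and 4.44 and 4.36 on C60 arrays 3 and 4. Without C60 array 2 the adjusted p was 0.510 for Dcn and 0.484 for Col3a1. All 3 calls were lost without 4 of the 5 arrays each, at adjusted p from 0.0525 upward.

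Few protein upkeep and translation genes were called, and those were lower with 1 exception. Over all features 2.95 percent were called higher and 1.98 percent lower. Of 30 proteasome subunits 3 fell and 1 rose. Psmb3, Psmd12 and Psmd7 fell by 0.51, 0.36 and 0.34 on the log2 scale. Psmd6 rose by 1.25 (SE 0.19; limma adjusted p = 0.000413), with levels of 0.61 and 0.58 on the C60 arrays, -0.82, -0.68 and -0.46 on the control arrays, and 0.40 to 1.22 in the other groups. The 3 falls were each lost without at least 4 of the 5 arrays, at adjusted p from 0.0573 to 0.234, while Psmd6 was called in all 5 such fits. The 2 other Psmd7 probes gave 0.29 and -0.12. Psmb9, the immunoproteasome subunit on the MHC class I list, fell by 0.63 (4.05 and 3.89 on the C60 arrays, 4.57, 4.63 and 4.59 on the control arrays), and was the 1 call of 29 there. It had 3.48 on both of C60 arrays 3 and 4, and 4.42 to 4.64 in the other 4 groups, and the call was lost without C60 array 2 (adjusted p = 0.133).

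Hspa8 and Dnajb1, the constitutive HSP70 and its partner, fell by 0.59 and 0.58 among 19 chaperones tested, and 0 rose. The 3 other probes of Hspa8 disagreed, at -0.26, -0.43 and 0.64, and the other Dnajb1 probe gave -0.39. Cytosolic ribosomal proteins had 1 fall of 71, Rpl35 (-0.79), with 15 lower and 0 higher before adjustment. The C60 mean of 46 of the 71 was below all other groups, and none was above. Over all features the C60 mean lay outside the other groups for 30.8 percent. The respiratory chain had 1 fall of 45, Ndufs7 (-0.45), with 27 C60 means below all groups and none above. The medians of these 2 lists were -0.19 and -0.12. With quantile normalization they were -0.05 and -0.07, with 4 and 0 falls. Both lists are bright. Over the 4259 features with a control level above 2, the median difference was -0.09, and -0.17 with C60 arrays 3 and 4. The ribosomal list had 26 falls with a median of -0.43 when all 4 C60 arrays were fitted, and 46 with a median of -0.71 when arrays 3 and 4 stood in place of 1 and 2. The respiratory list had 7 and 9 falls in these fits, and the proteasome list 8 and 14. Hspa8, Rpl35 and Ndufs7 each lost the call without 4 of the 5 arrays and Dnajb1 without any 1, at adjusted p between 0.0520 and 0.290.

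Among genes of growth arrest, Cdkn1a is described above. Gadd45g, a stress-induced growth arrest gene, had levels of 2.79 and 2.89 on the C60 arrays and 3.74, 3.50 and 3.6 on the control arrays and fell by 0.78 on the log2 scale (SE 0.16; limma adjusted p = 0.00826). The unused C60 arrays gave 3.52 and 3.35, and the call was lost with all 4 C60 arrays and without C60 array 1 (adjusted p = 0.0914). Ddit3, the stress factor CHOP, was the 1 fall of 25 unfolded protein response genes (-0.64; lost without 4 arrays, adjusted p 0.0884 to 0.170). Aurka, a mitotic kinase, was the 1 rise of 33 cell cycle genes (0.58, SE 0.11; adjusted p = 0.00541, and 0.0960 without C60 array 1). Its levels were -0.54 and -0.70 on the C60 arrays and -1.16, -1.19 and -1.25 on the control arrays, with -1.55 to -1.13 in the other groups.

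Among 28 immediate early genes, Zfp36, an RNA-binding protein that destabilises cytokine messages, rose by 1.29 and Nr4a3, an orphan nuclear receptor, fell by 1.22. Over all features 2.95 percent were called higher and 1.98 percent lower. The Zfp36 probe has 20.0 percent G and C. With 1 C60 array left, its difference was 1.35 without C60 array 1 and 1.23 without C60 array 2. The 3 probes of Nr4a3 disagreed, the others giving 0.44 and -1.01. Its call was lost without control array 2 (limma adjusted p = 0.0566), and its difference without C60 array 2 was -0.95. Metal handling genes had Slc30a1, a zinc exporter, higher (0.39) and Slc30a4, another, lower (-0.68), of 15. Without C60 array 2 neither was called (adjusted p = 0.246 and 0.446). Besides Celsr1, Wnt11 was the other rise of 27 polarity and Wnt genes (0.61; lost without any 1 array, adjusted p 0.0828 to 0.301).

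No call was made, with the unadjusted counts beside, among 25 cholesterol genes (0 higher, 2 lower), 17 clock genes (0 higher, 1 lower), 31 glycolysis and hypoxia genes (1 higher, 2 lower) and 23 xenobiotic metabolism genes (1 higher, 2 lower). With all 4 C60 arrays these lists had 3, 1, 3 and 2 falls and 0, 0, 0 and 1 rises. With arrays 3 and 4 in place of 1 and 2 they had 3, 2, 10 and 1 falls and 0, 0, 0 and 1 rises. The glycolysis and hypoxia median was then -0.37.

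**Figure D4:**
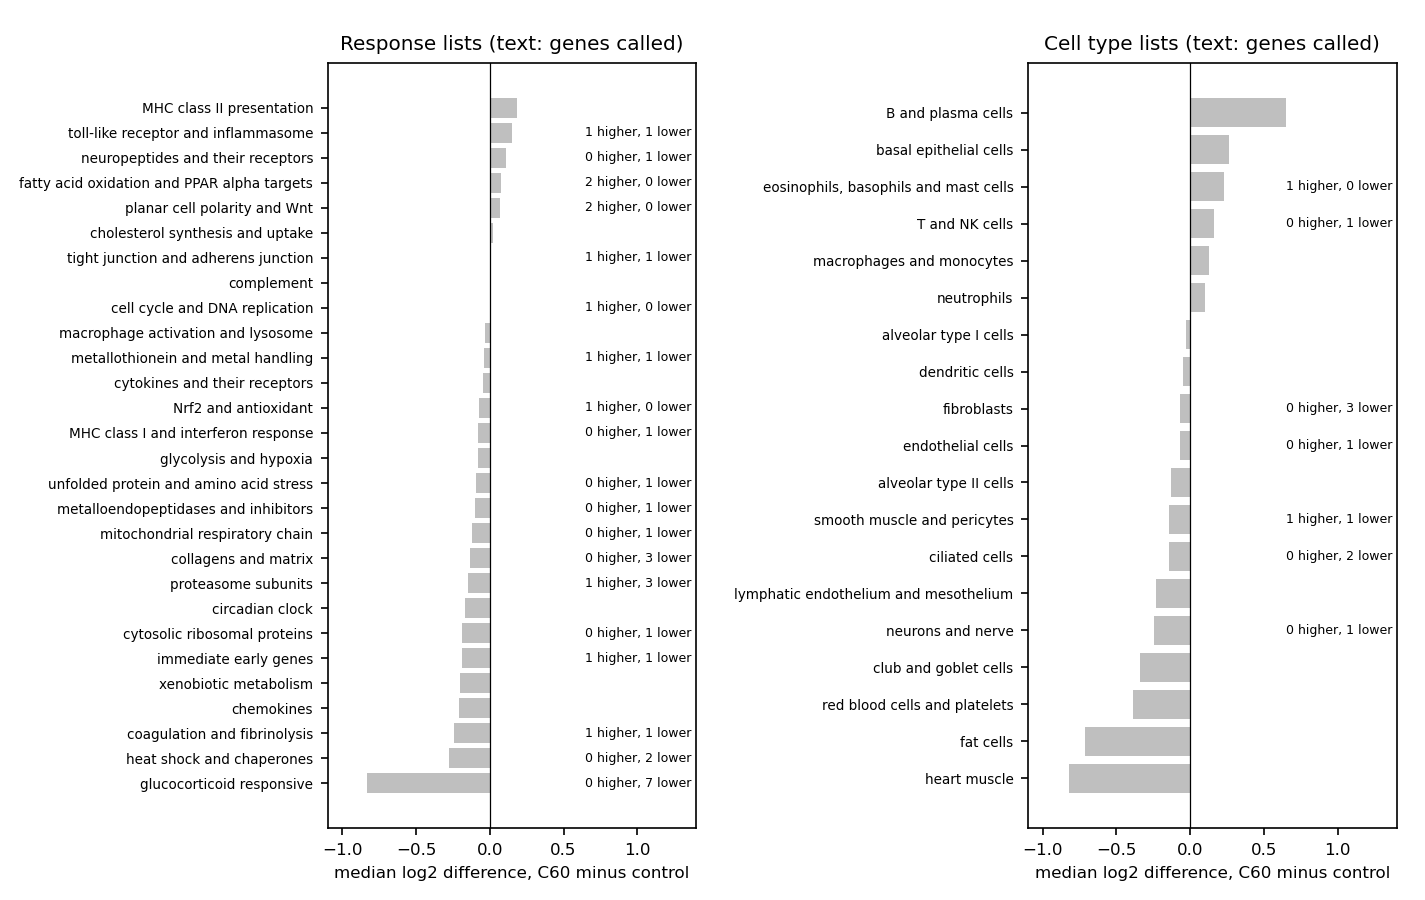
Median log2 difference, C60 minus control, of the gene lists (bars from 0; left panel, response lists; right panel, cell type lists), with the number of called genes in text where any was called. The glucocorticoid list has the lowest response median at -0.83 and 7 calls, while the heart muscle list at -0.82 has no calls.

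Cell type markers showed few calls, beside 2.95 percent of all features called higher and 1.98 percent lower. Alveolar type II markers, alveolar type I markers, club and goblet cells, macrophages and monocytes, and neutrophils had 0 calls of 16, 13, 10, 23 and 14. At an unadjusted p under 0.05 these lists had 0, 0, 0, 2 and 1 higher and 1, 2, 1, 0 and 0 lower. These counts depended on the C60 arrays used. With all 4, the 5 lists had 0, 1, 0, 1 and 0 rises and 4, 1, 0, 0 and 0 falls. With arrays 3 and 4 in place of 1 and 2, they had 0, 1, 0, 1 and 0 rises and 8, 3, 1, 3 and 2 falls. The type II median was then -0.53, and the neutrophil median turned from 0.10 to -0.62. Ciliated cells had 2 falls of 18: Foxj1, the master regulator of motile cilia, had 3.46 and 3.49 on the C60 arrays and 3.97, 3.99 and 3.98 on the control arrays (-0.50, SE 0.14; limma adjusted p = 0.0388). Tekt2, a tektin of the axoneme, fell by 0.59. The Foxj1 call was lost without any 1 array and that of Tekt2 without 4 (adjusted p 0.0577 to 0.218). Of the wall cells, Notch3, a receptor of pericytes and smooth muscle, rose by 1.31 (3.68 and 4.14 on the C60 arrays, 2.49, 2.65 and 2.66 on the control arrays), with 3.62 to 4.63 in the other groups. Tagln, a smooth muscle protein, fell by 0.53, and Flt1, a VEGF receptor of endothelium, by 0.68, although the other Flt1 probe gave 0.21. Notch3 and Tagln were the 1 rise and 1 fall of 14 smooth muscle and pericyte genes. Flt1 was the 1 call, a fall, of 25 endothelial genes. The Tagln call was lost without any 1 array (adjusted p 0.0533 to 0.172) and that of Flt1 without control array 1 or either C60 array (0.0540 to 0.117).

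Of the immune and nerve markers, 4 were called. The 1 rise among them was also the 1 call of 13 eosinophil, basophil and mast cell genes. Mcpt8, a basophil protease, had -1.50 and -1.61 on the C60 arrays and -2.37, -2.76 and -2.70 on the control arrays (1.05, SE 0.29; limma adjusted p = 0.0476), but -2.40 and -2.45 on C60 arrays 3 and 4, and it was not called without any 1 array (adjusted p 0.0621 to 0.257). The other 3 were falls. Foxp3, the regulatory T cell factor, Nefm, a neurofilament, and Cck, a gut and brain peptide, were called lower with neither C60 array well above background, so no fold can be given. They were the 1 call each of 25 T and NK cell, 13 nerve and 20 neuropeptide genes. Basal epithelial, lymphatic and mesothelial, dendritic, and red cell and platelet genes had 0 calls of 6, 7, 9 and 12, with 1, 0, 0 and 0 higher and 0, 2, 2 and 1 lower before adjustment.

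Heart muscle, fat cell and B cell lists had medians far from 0 but no calls. Heart muscle genes, which rodents also express in the wall of pulmonary veins, had 0 calls of 18 by limma, but 12 lower and 0 higher before adjustment, and a median of -0.82. Their summed signal, in units of the array's 75th percentile, was 112 and 79.5 on the C60 arrays and 111, 157 and 150 on the control arrays, and 137 and 109 on C60 arrays 3 and 4. With all 4 C60 arrays 3 of the 18 fell, with a median of -0.53. Fat cell genes had 0 calls of 12 (0 higher and 1 lower unadjusted) and a median of -0.71. Their sums were 14.6 and 12.6 on the C60 arrays and 14.7, 28.7 and 13.8 on the control arrays, of which array 2 stood highest. C60 arrays 3 and 4 gave 21.5 and 19.1, and in place of arrays 1 and 2 they turned the median to 0.40. B and plasma cell genes had 0 calls of 12 (5 higher and 0 lower unadjusted) and a median of 0.65. Cd79b, a chain of the B cell receptor picked after its value was seen, had 0.60 and 0.19 on the C60 arrays and -0.84, -0.29 and -0.03 on the control arrays. The summed signal of this list was 82.4 and 86.0 on the C60 arrays and 77.8, 88.8 and 85.5 on the control arrays. A sum weighs its brightest member most, which was Sdc1 here, Myl7 for heart muscle and Cfd for fat cells. These sums are therefore no measure of the lists as a whole. With the probe GC correction 2 of the 12 B and plasma cell genes were called higher. The part of these cell types in the calls above was not tested.

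Composition of the probe moved with the difference. The median difference was 0.12 over 4463 probes of up to 35 percent G and C, and -0.15 over 4720 probes of above 50 and up to 55 percent. In the first of these classes 221 were called higher and 20 lower, and in the second 96 and 155. Against the 4 other groups, the C60 median was -0.10 in the first class and -0.03 in the second, and the control median was -0.23 and 0.13. Fitted after taking the median of each class off each array, 1183 features were called, 747 higher and 436 lower. Of the 79 named genes that were called, 65 were called in that fit and 14 were not. Lost were all 3 falling proteasome subunits, Psmb3, Psmd12 and Psmd7 (adjusted p = 0.168, 0.0821 and 0.270), and Psmb9 (0.131). So were both ciliated cell genes, Foxj1 (0.0680) and Tekt2 (0.103), and Zfp36 (0.0757), Gadd45g (0.117), Ddit3 (0.0618), Ndufs7 (0.250), Slc30a1 (0.238), Tagln (0.0772) and Or12e9 (0.0627). This correction was chosen after seeing the data.

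**Figure D5:**
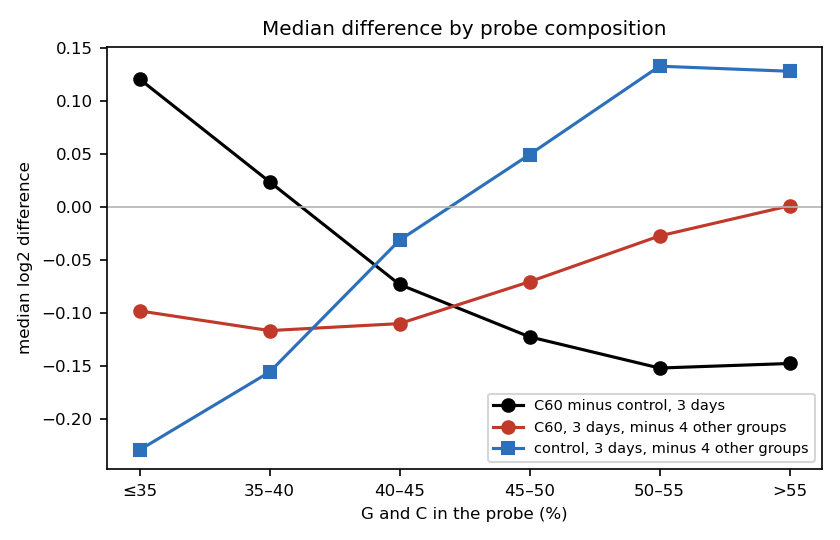
Median log2 difference (vertical axis) by the share of G and C in the probe (percent, horizontal axis). Black is C60 minus control at 3 days, red is C60 at 3 days minus the mean of the 4 other groups, and blue is control at 3 days minus the same 4. The black line runs from 0.12 to -0.15 and the blue one from -0.23 to 0.13.

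Detection also differed by direction. All 5 arrays were well above background for 557 of the 744 called rises and 306 of the 499 called falls. Neither C60 array was well above background in 169 of the falls, and for 62 falls the bound allows no fold. No control array was well above background in 139 of the rises, and in 51 rises and 9 falls no array of either group passed.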

How the data were processed

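Lung RNA was hybridised to 1-colour Agilent rat arrays. The deposited scanner files hold the processed spot intensity, which the authors' Feature Extraction software (version 9.5.3.1, per the file headers) had background-subtracted. The deposited series table holds ratios of treated over control, used here only to find which C60 arrays the authors had used and as an alternative for named genes. The number of arrays limits the precision.

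Here log2 intensity was taken minus each array's 75th percentile. Of 41012 probes, 28677 were kept. These passed as well above background throughout 1 or more groups. The probe with the highest mean signal stood for a gene, and names came from a RefSeq gene table (GRCr8). Differences were tested with limma 3.58.1 (R 4.3.3), C60 minus control, with 21 arrays of 6 groups sharing 1 estimate of spread and Benjamini-Hochberg adjustment over 25234 features. The code was tested on simulated data. Tables and figures used Python 3.11.15, pandas 2.3.3 and matplotlib 3.10.9.

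Genes were named by rule from those called, with no overlap between the 5 arrays and the brighter group well above background throughout: (a) the 12 largest rises and 12 largest falls with a symbol, (b) the 8 largest each way among genes brighter than the median whose call held with all 4 C60 arrays, and (c) the 6 largest each way whose C60 mean lay at least 1 log2 unit outside all other groups (3 rises qualified). Added were (d) up to 3 called members of each list in each direction and (e) the 2 members with the largest change, called or not, of 6 lists on macrophages, chemokines, cytokines, proteases, MHC class II and antioxidants. Genes outside the rule are said to be so. The genes, lists and tests were chosen with earlier results of these data known. Alternatives were tried for background correction, scaling, filter, probe choice, arrays used and probe composition. 1 gene and 1 list are not reported here.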

Additional observations from a re-analysis of the deposited data

Results flagged for a closer look

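C60 arrays 3 and 4 were left out of the main comparison, and both lay above all 3 control arrays for 3 of the genes in which the C60 slide stood highest. Their mean level was 1.49 for Acot1, against a control mean of -0.83. For Xdh it was 1.83, against a control mean of 1.06. For Il10ra it was -2.79, against a control mean of -3.29. Only for Acot1 did both also lie above all 16 arrays of the other 4 groups, of which the highest had -0.29. For Xdh and Il10ra the highest of those 16 had 2.02 and -2.35, above both C60 array 3 and C60 array 4. C60 arrays 3 and 4 share the slide of C60 arrays 1 and 2, and the part of the slide in these levels was not tested.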

How the results depend on the processing

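No paired analysis was possible because the labels give 1 sample a group and no number that links arrays of different groups. The split of 744 higher and 499 lower became 1382 higher with no filter on dim probes, 418 higher and 291 lower (709 in all) over bright probes only, and 367 higher and 284 lower (651 in all) with only the C60 and control arrays of 3 days, where 2 glucocorticoid-responsive genes were lower. With all 4 C60 arrays 1619 were higher and 1365 lower (2984 in all), and with arrays 3 and 4 in place of 1 and 2, a choice made after seeing the data, 2413 and 1894 (4307 in all). Leaving out 1 array gave 744 to 917 calls, 461 to 608 higher and 209 to 314 lower, with 0 to 5 glucocorticoid-responsive genes lower; a lone C60 array was then assumed to vary like the other groups. The sign turned for Cck (0.28) and Nefm (0.0058) with the negative control signal taken off, for Matcap1 (0.0079) under normexp, for Fabp4 (0.0175) and Spp1 (0.0877) with all 4 C60 arrays, and with arrays 3 and 4 for Ccl11 (0.61), Fabp4 (0.73), Gsta3 (0.14) and Spp1 (0.87). Leaving out 1 array moved Gsta3 between -2.002 and 0.0204. The causes were not tested. Of 79 called named genes, 18 were called under every alternative and 28 in every fit without 1 array.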
